A study of Mus musculus with 4 samples.

Results

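The mRNAs of 10 genes that write or remove ADP-ribose on proteins were followed across the 4 conditions of the experiment: Parp1, Parp2, Parp3, Parp4, Parp6, Parp8, Parp9, Parp12, Parp14 and Parg. They were taken by gene name, by a rule that uses no measured value, though the set was proposed with earlier results of these data known. They made up 10 of the 31093 gene names on the array, with 12 probes of 39429. Parp4 and Parp6 had 2 probes each and the other 8 genes 1 each. IMS32 cells, a line of mouse Schwann cells that became immortal in culture, were kept for 1 h in DMEM with 5% FBS. The [Glc 5 mM/Pyr (+)] sample had 5 mM glucose and 1 mM pyruvate, and [Glc 5 mM/Pyr (-)] the same glucose with no pyruvate. The [Glc 15 mM/Pyr (+)] sample had 15 mM glucose and 1 mM pyruvate, and [Glc 15 mM/Pyr (-)] had 15 mM glucose alone. All 4 groups shared the line, the serum and the duration, and each was 1 sample on 1 array of a single slide. No difference below has a replicate check, and the culture, the labelling and the condition cannot be told apart. The comparisons ask whether the mRNAs of these enzymes differed when pyruvate was withheld at either glucose concentration, and when glucose was raised with or without pyruvate.

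Poly(ADP-ribose) polymerases take the ADP-ribose group from NAD+ and attach it to proteins, releasing nicotinamide. Parp1 and Parp2 build chains of ADP-ribose at broken DNA, most other family members attach a single unit, and poly(ADP-ribose) glycohydrolase, the product of Parg, cuts the chains down again. Strong activity of Parp1 can draw heavily on cellular NAD+, which glycolysis also needs. Much of the control of Parp1 acts on the enzyme rather than on its mRNA, and the arrays measured the mRNA only.

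The probes decide what each value means, so the sequences of the members whose readings turn on the probe are shown, 5′ to 3′ in the sense of the mRNA. Parp1 and Parp2, the enzymes activated by DNA breaks, were each read by a single 60-base probe. Parp6 and Parp4 follow because the paired probes of each gene gave unequal differences. Capitals mark the hexamer AATAAA, the common polyadenylation signal, where it lies in the stretch shown.
Parp1: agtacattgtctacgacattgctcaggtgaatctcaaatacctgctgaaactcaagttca
Parp2: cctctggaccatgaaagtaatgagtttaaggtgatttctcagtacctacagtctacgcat
Parp6, dimmer probe: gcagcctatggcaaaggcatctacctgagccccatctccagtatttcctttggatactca
Parp6, brighter probe, bases 31 to 60: cctgtttgtaAATAAAacAATAAAatggaa
Parp4, brighter probe, bases 1 to 30: tcaaatagtaaaatgtaccaataatgacgt
Parp4, dimmer probe, bases 1 to 30: cctccatatcacagacagagattgattctt
In the mm9 build, the deposited annotation put the Parp1 probe at chr1:182530581-182530639 on the plus strand. The brighter Parp6 probe lay at chr9:59498017-59498076 and the dimmer one upstream of it at chr9:59489557-59489616, both on the plus strand. The brighter Parp4 probe lay at chr14:57278506-57278565 on the plus strand, while the Parp2 probe and the dimmer Parp4 probe carried no position. The annotation did not state exon or UTR for any probe. AATAAA, searched on the probe's own strand, was present 2 times in the brighter Parp6 probe and occurred in 3 of the 12 member probes, those of Parg, Parp6 and Parp4. Of all 39429 probes, 12.6% held it, and a match is a description of the letters only.

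Values below are Agilent processed signals, in intensity units with background removed, or log2 differences taken after each array was scaled to its own 75th percentile. Signals are given in 1 order throughout, first the 5 mM arrays and then the 15 mM arrays, with the array that had pyruvate ahead of its partner. In that order the percentile was 1788, 1740, 1597 and 1632. Unscaled signals therefore run lower on the 15 mM arrays for most probes, and only the scaled differences compare conditions. All 12 member probes were well above background on all 4 arrays, and no spot was saturated. Between repeated spots of 1 probe at signals of 300 to 10000, the median SD was 0.065 on the log2 scale averaged over the arrays, which gives an SD of 0.093 for a difference between 2 arrays. This yardstick covers the array surface and the scan and leaves out the culture, the RNA and the labelling. The scanner software's own error estimate for a member probe was larger, 0.14 to 0.15 on the log2 scale on average. The arrays measured RNA in bulk, so fewer cells of a type and less RNA per cell cannot be told apart. All 10 Schwann cell markers looked for had a probe above background on every array, S100b, Sox10 and Pmp22 among them. The fibroblast markers (4 of 4), the macrophage markers (4 of 4), 2 of 3 neuronal markers and 1 of 2 endothelial markers were detected too. Rbfox3 and Cdh5 had no probe above background on all arrays. Of the macrophage markers, Ptprc was dim at 23.4 to 29.6 units, while Cd68 read 1200, 1258, 969 and 1817 and differed by 0.88 for pyruvate at 15 mM glucose and by 0.62 for raised glucose without pyruvate. The highest Itgam probe read 13155, 11908, 8530 and 7997, and the highest Csf1r probe 1063, 1055, 1001 and 1041. The part of any other cell type in the values below was not tested.

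The 10 mRNAs differed little between conditions. Across the 4 comparisons the widest difference was that of Parp4 between the glucose concentrations without pyruvate, 1.29-fold, and 0 of 10 genes reached either 1.5-fold or 2-fold in any comparison. Over the 4 arrays the range of a gene on the log2 scale ran from 0.05 for Parp9 to 0.36 for Parp4. The highest value lay in [Glc 5 mM/Pyr (+)] for 5 genes and the lowest in [Glc 15 mM/Pyr (-)] for 7. Among the 21717 genes measured on all arrays, those shares were 30.3% and 30.4%.

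**Figure D1:**
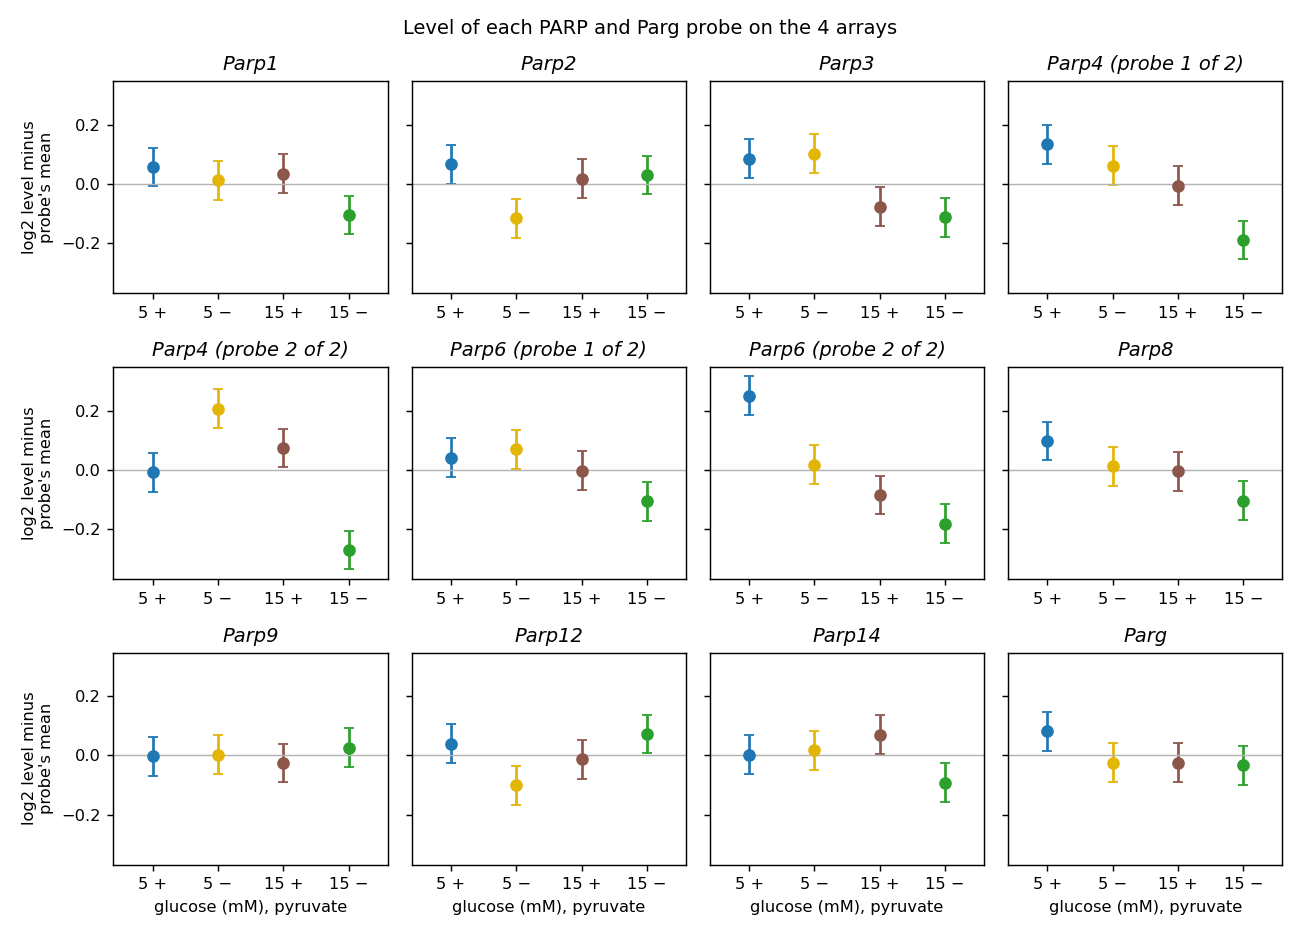
Each panel is 1 probe. Points are its scaled log2 level on each of the 4 arrays (glucose in mM, pyruvate + or −) minus its mean over the arrays, on a shared vertical axis, and bars are the median SD between repeated spots (0.065), not a replicate error. The dimmer Parp4 probe (2 of 2) spans the widest range and Parp9 the narrowest.

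Among the enzymes that respond to DNA breaks, Parp1, the main nuclear poly(ADP-ribose) polymerase, gave signals of 4238, 3995, 3728 and 3456. After scaling, the levels of the first 3 arrays lay within 0.05 of each other on the log2 scale and [Glc 15 mM/Pyr (-)] lay below them. For Parp1 the pyruvate difference was -0.05 with 5 mM glucose and -0.14 with 15 mM. With glucose raised, the difference was -0.02 with pyruvate and -0.12 without. The pair of differences that involve [Glc 15 mM/Pyr (-)] exceeded the SD of 0.093 set by repeated spots and the other pair did not. The SD over probes of like signal was wider, 0.18 where Parp1 gave -0.14 and 0.19 where it gave -0.12. It was 0.10 and 0.12 where Parp1 gave -0.05 and -0.02, so all 4 values lay within it. The scanner software's error for the Parp1 probe averaged 0.14 on a single array. The lower level in [Glc 15 mM/Pyr (-)] was therefore not resolved by these wider measures. The sign of Parp1 was negative in all 4 comparisons under every alternative of the processing that was tried.

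Parp2, which shares the break-dependent activity of Parp1, read 650, 557, 562 and 579. Its [Glc 5 mM/Pyr (-)] level stood below the other 3, which lay within 0.05 of each other. Its pyruvate difference was -0.18 with 5 mM glucose and 0.01 with 15 mM, where the sign turned under 5 of the 9 alternatives. Between glucose concentrations Parp2 differed by -0.05 with pyruvate and 0.15 without, the latter falling to -0.01 when the arrays were scaled on spike-in RNA. Parp1 and Parp2 thus had their lowest levels on different arrays.

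Parp3, which is activated by DNA ends and attaches single ADP-ribose units, read 1335, 1314, 1065 and 1062. Its levels formed 2 pairs by glucose concentration, with the 5 mM arrays above the 15 mM arrays by 0.16 at the narrowest gap. Raised glucose thus gave -0.16 with pyruvate and -0.21 without it. Within a glucose concentration the levels were close, with pyruvate differences of 0.02 at 5 mM, where the sign turned with spike-in scaling, and -0.04 at 15 mM glucose. The probe lies in mm9 at chr9:106372743-106372802 on the minus strand.

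Parp4 encodes the PARP of the vault, a large cytoplasmic particle of protein and RNA. Its brighter probe read 802, 742, 650 and 585 and its dimmer probe 430, 486, 407 and 327, the names brighter and dimmer serving only to tell the probes of a gene apart. On both probes [Glc 15 mM/Pyr (-)] was the lowest array, and the probes parted over the highest, which was [Glc 5 mM/Pyr (+)] for the brighter and [Glc 5 mM/Pyr (-)] for the dimmer. Withholding pyruvate gave log2 differences of -0.07 and 0.21 at 5 mM glucose on the brighter and dimmer probe. At 15 mM glucose it gave -0.18 and -0.35. Without pyruvate, raised glucose gave -0.25 and -0.48, the latter the widest difference of any member probe. The probes agreed in sign in the comparisons that involve [Glc 15 mM/Pyr (-)] and disagreed in the other pair. As the mean over both probes, Parp4 differed by 0.07 and -0.26 without pyruvate at 5 and 15 mM glucose, and by -0.03 and -0.36 with raised glucose with and without pyruvate. The values of 0.07 and -0.03 changed sign under other processing, while -0.26 and -0.36 stayed negative under all 9 alternatives.

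The genes whose centred levels over the 4 arrays lay closest to those of Parp4, the member with the widest range, were Myo9a, Med13 and Cbx2. Their root mean square difference from Parp4 was 0.0043, 0.0056 and 0.012 on the log2 scale, from 14533 genes searched. With 4 arrays, close matches among so many genes are a description of the arrays only. The remaining genes of the vault and cell death list were Mvp, Tep1, Aifm1, Mif and Aimp2. Their pyruvate differences at 5 mM glucose ran from 0.01 to 0.06, and 0 of 5 reached 1.5-fold in any comparison. The 0.06 was that of Mif, the mean of 4 probes that the annotation put on 4 chromosomes. Tep1, the telomerase-associated protein of the vault, read 2177, 2144, 2047 and 1656. It was lowest on the array where Parp4 was lowest, with differences of -0.34 without pyruvate at 15 mM glucose and -0.28 with raised glucose without pyruvate. Mvp, the major vault protein, differed by -0.24 in the first of these comparisons and by 0.20 with raised glucose in the presence of pyruvate.

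Parp6 and Parp8 encode closely related enzymes that attach single ADP-ribose units. The brighter Parp6 probe read 4830, 4794, 4187 and 3980, with the 5 mM arrays highest and [Glc 15 mM/Pyr (-)] lowest. The dimmer probe read 144, 119, 102 and 97.2, with [Glc 5 mM/Pyr (+)] above the rest, at signals below the range over which the SD of repeated spots was taken. At 5 mM glucose the pyruvate difference was 0.03 on the brighter and -0.23 on the dimmer probe, while at 15 mM glucose both gave -0.10. Raised glucose gave -0.04 and -0.34 with pyruvate, and -0.18 and -0.20 without. The probes thus differed most in the comparisons that involve [Glc 5 mM/Pyr (+)], and the mean of -0.10 at 5 mM glucose turned to 0.03 when the brighter probe alone was used. Parp6 as the mean over both probes differed by -0.19 in each glucose comparison.

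Parp8 read 1907, 1750, 1587 and 1513, and its scaled levels ran downwards in the order in which the arrays are listed here. Its differences were the most even of the members, at -0.09 and -0.10 for pyruvate at 5 and 15 mM glucose and -0.10 and -0.12 for glucose with and without pyruvate. All 4 kept their sign under the 9 alternatives and lay close to the SD of 0.093 set by repeated spots. The probe lies in mm9 at chr13:117643922-117643981 on the minus strand.

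Parp9, Parp12 and Parp14 are induced by interferon, and Parp9 works with Dtx3l, a ubiquitin ligase. In the RefSeq order of protein-coding genes on chromosome 16, Dtx3l is the 1 gene between Parp14 and Parp9, and the probes of Parp14 and Parp9 lie in mm9 at chr16:35832992-35833051 on the minus strand and chr16:35972577-35972636 on the plus strand. Parp9 read 1548, 1513, 1362 and 1442, and its 4 scaled levels lay within 0.05 of each other. Its differences of 0.01 and 0.05 for pyruvate and of -0.02 and 0.02 for glucose were all below the SD of 0.093, and only the second kept its sign under every alternative. Parp9 was the member whose levels could least be told apart.

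Parp14, a large PARP with macrodomains, read 1777, 1748, 1665 and 1520. Its [Glc 15 mM/Pyr (-)] level stood below the other 3. Withholding pyruvate gave 0.01 at 5 mM glucose, where the sign turned with spike-in scaling, and -0.16 at 15 mM glucose. Raised glucose gave 0.07 with pyruvate, which turned to -0.23 with spike-in scaling, and -0.11 without pyruvate. Parp12, a PARP with zinc fingers, read 349, 308, 301 and 326. Its highest scaled level was in [Glc 15 mM/Pyr (-)] and its lowest in [Glc 5 mM/Pyr (-)], so that at 15 mM glucose it was higher without pyruvate where Parp14 was lower. Its differences were -0.14 and 0.08 for pyruvate at 5 and 15 mM glucose, and -0.05 and 0.17 for raised glucose, again with pyruvate first. The -0.05 turned positive under cyclic loess and under normexp background correction. The 0.08 lay below the SD of 0.093 set by repeated spots, so the contrast with Parp14 at 15 mM glucose rests on a small value.

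These 3 genes were set beside 15 other interferon-stimulated genes. The list medians were 0.07 and 0.25 for pyruvate at 5 and 15 mM glucose and 0.18 and 0.14 for glucose with and without pyruvate. Mx1, an antiviral GTPase, was the only gene of the list past 1.5-fold, at 0.83 without pyruvate at 15 mM glucose, 0.64 with raised glucose with pyruvate and 1.40 without. Its signals were dim, at 20.3, 20.7, 28.2 and 51.3 units. Ifit1, an interferon-induced RNA-binding protein, read 94.0, 123, 90.7 and 127, with pyruvate differences of 0.43 and 0.46. Parp9, Parp12 and Parp14 lay between -0.16 and 0.17 in every comparison. The brightest Dtx3l probe read 1328, 1283, 1231 and 1258 and differed by at most 0.06 in any comparison. Its 2 dimmer probes, at 35.3 to 48.5 units, gave wider differences, so the mean of the 3 probes was 0.13, -0.20, 0.26 and -0.08 over the comparisons in the same order.

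Parg, the glycohydrolase that trims ADP-ribose chains, read 7150, 6465, 5934 and 6025. Its [Glc 5 mM/Pyr (+)] level stood above the other 3, which lay within 0.01 of each other after scaling. The log2 difference was therefore -0.11 in each comparison that involves this array and -0.01 in each of the others. All 4 stayed negative under the 9 alternatives. The probe lies in mm9 at chr14:33110162-33110221 on the plus strand. Other genes that remove ADP-ribose (Adprhl2, Adprh, Adprhl1, Macrod1, Macrod2, Oard1, Nudt5 and Nudt9) had medians of -0.0019 and 0.16 for pyruvate and 0.06 and 0.17 for glucose. At 15 mM glucose without pyruvate 7 of the 8 lay above the array with pyruvate, and all 8 lay above [Glc 5 mM/Pyr (-)], where 56.9% and 56.2% of all genes did. The widest were Macrod2 at 0.28 for pyruvate at 5 mM glucose, as the mean of 4 probes that the annotation put on 2 chromosomes, Adprhl1 at 0.28 for pyruvate at 15 mM glucose and at -0.21 for glucose with pyruvate, and Nudt5 at 0.27 for glucose without pyruvate, and 0 of 8 reached 1.5-fold. The Macrod2 probe with the highest signal gave 0.23, and one at only 12.7 to 17.4 units gave 0.46.

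**Figure D2:**
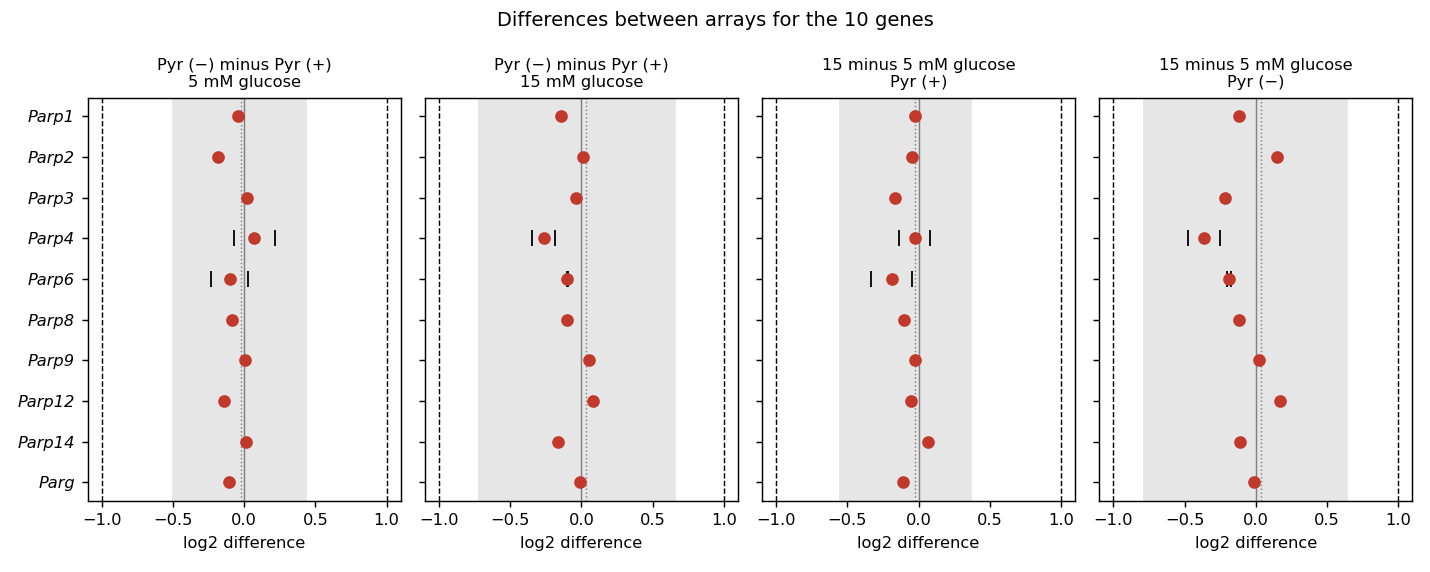
Each panel is 1 comparison between 2 arrays, with the log2 difference on the horizontal axis and the 10 genes as rows. Red points are gene values, black ticks the separate probes of Parp4 and Parp6, the grey band the central 95% of all genes, the dotted line their median and the dashed lines 2-fold. All 10 genes lie inside the band in every panel.

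Taken by comparison, withholding pyruvate at 5 mM glucose left 0 of 10 members at 2-fold or more, against 1.18% of 22950 genes, and 0 of 10 at 1.5-fold, against 3.46%. The members ranged from -0.18 for Parp2 to 0.07 for Parp4, with an SD of 0.08, and the central 95% of all genes from -0.50 to 0.43. Their median was -0.07 against -0.02 for all genes. Lower values were found for 6 of 10 members, against 56.1% of all genes, and higher values for 4, against 43.9%. Of the probes 7 of 12 were lower, against 55.3% of probes of similar signal. At 15 mM glucose, again 0 of 10 reached 2-fold, against 2.16% of 21886 genes, and 0 of 10 reached 1.5-fold, against 6.76%. The range was -0.26 for Parp4 to 0.08 for Parp12, and the median -0.07 against 0.03. Here 7 of 10 were lower, against 43.1%, and 9 of the 12 probes, against 44.9% of probes of similar signal. Under the alternatives 7 or 8 of 10 were lower.

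Raising glucose with pyruvate left 0 of 10 at 2-fold, against 1.00% of 22243 genes, and 0 of 10 at 1.5-fold, against 3.33%. All members except Parp14 were lower, 9 of 10 against 55.6% of all genes, with 1 higher against 44.4%. Of the probes 10 of 12 were lower, against 53.7% of probes of similar signal. However, most of these differences were small and the count ran from 5 of 10 with normexp background correction to 10 of 10 with spike-in scaling. The median was -0.05 against -0.02. Without pyruvate, 0 of 10 reached 2-fold, against 2.45% of 22242 genes, and 0 of 10 reached 1.5-fold, against 7.43%. This comparison had the widest spread of the members, from -0.36 for Parp4 to 0.17 for Parp12 with an SD of 0.17. The median was -0.11 against 0.03, and 7 of 10 were lower, against 43.8%, as were 9 of 12 probes, against 45.1% of probes of similar signal. The comparisons share arrays pairwise, so the counts are not independent of each other. Set against probes of like signal, 0 of 12 member probes lay beyond 2 SD in any comparison when the measured probes were split into 10 groups by signal and each probe was set against its own group, where 4.83%, 4.96%, 5.78% and 5.41% of all probes did.

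**Figure D3:**
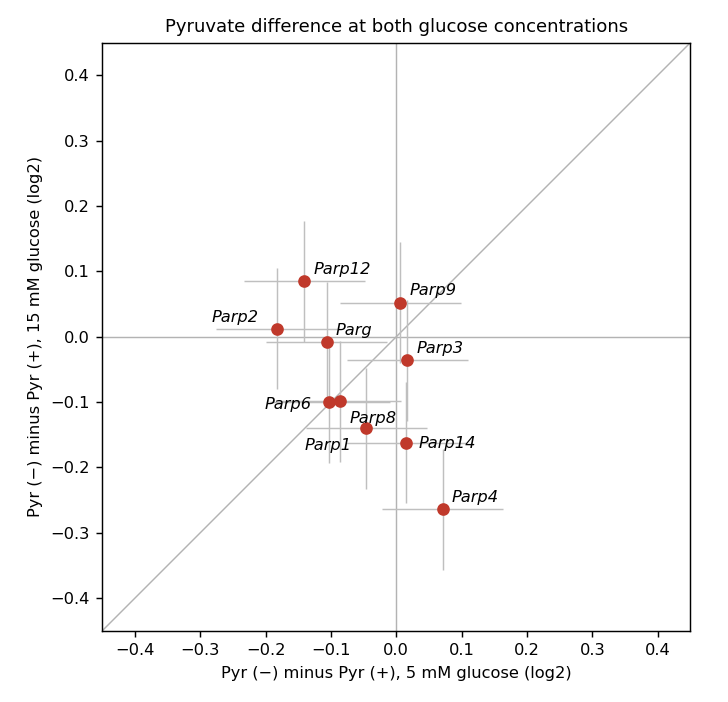
The log2 pyruvate difference at 5 mM glucose (horizontal) is set against that at 15 mM glucose (vertical) for each of the 10 genes, with bars of 0.093, the SD of a difference from repeated spots. Parp4 lies farthest below the diagonal and Parp12 farthest above it, and the difference between the axes was not tested.

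Whether the pyruvate difference depended on glucose was read as the value at 15 mM minus the value at 5 mM glucose. It was lowest for Parp4 at -0.34, followed by Parp14 at -0.18 and Parp1 at -0.09. It was highest for Parp12 at 0.23 and Parp2 at 0.20, with Parg at 0.10. For Parp6 it was 0.00 and for Parp8 -0.01. The pyruvate difference was negative at both glucose concentrations for Parp1, Parp6, Parp8 and Parg and positive at both for Parp9. For the other members its sign differed between the concentrations, and the matching share of all genes was not taken. The median of this crossed difference was -0.01 over the members and 0.05 over all genes, whose SD was 0.38. With 1 array per condition it could not be tested.

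An additive fit of pyruvate and glucose to all 4 arrays, which leaves 1 residual degree of freedom and counts any crossed dependence as error, called 0 of the 12 member probes for either term, against 0.00% of 31278 probes for each. Unadjusted p-values under 0.05 were also found for 0 of 12 member probes. Of all 31278 probes, 1078 had one for pyruvate and 1497 for glucose, so few that 0 of 12 does not set the members apart. For Parp1 the pyruvate term was -0.09 with an SE of 0.093, a 95% interval of -0.42 to 0.23 and an adjusted p of 0.985 by limma. The lowest member p was that of the dimmer Parp6 probe for glucose, at -0.27 with an SE of 0.098, an interval of -0.61 to 0.07 and an adjusted p of 0.772 by limma. For the brighter Parp4 probe the glucose term was -0.20, with an interval of -0.53 to 0.14, and for Parp3 it was -0.19, with an interval of -0.50 to 0.12. Each of these intervals is wider than the whole range of its probe over the 4 arrays, so the fit could not resolve differences of the size measured.

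The members were also set beside related genes. Of 7 other ADP-ribosyltransferases (Tnks, Tnks2, Tiparp, Parp10, Parp11, Parp16 and Zc3hav1), 0 reached 1.5-fold, and their medians were 0.06 and -0.07 for pyruvate at 5 and 15 mM glucose and 0.08 and -0.03 for glucose with and without pyruvate. Tnks, or tankyrase, which acts at telomeres and in Wnt signalling, differed by 0.19 and -0.20 for pyruvate and by -0.28 for glucose without pyruvate. Parp10 had the largest value of the list for glucose with pyruvate, 0.16.

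Of 12 single-strand break repair genes and Parp1 partners, 0 reached 1.5-fold, and the medians were 0.04 and 0.04 for pyruvate and 0.04 and 0.06 for glucose. The widest for pyruvate at 5 mM glucose was Rnf146, a ubiquitin ligase that reads ADP-ribose chains, at 0.16. That value was the mean of 2 unequal probes, which gave 0.04 and 0.28. The widest for pyruvate at 15 mM glucose was Lig3, the DNA ligase that seals such breaks, at -0.19. The gene named 2700029M09Rik on the array, which is Hpf1, the factor that directs Parp1 to serine, read 25198, 23384, 23991 and 25426. It differed by 0.21 for glucose without pyruvate. Parp1 was lower than its median partner in each comparison.

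Of 8 genes that supply NAD+, the substrate of the PARPs, 0 reached 1.5-fold. Their medians were -0.04 and 0.13 for pyruvate and -0.08 and 0.09 for glucose. The widest were Nmnat3 at -0.18, Naprt at 0.34, Qprt at -0.37 and Nmrk1 at 0.18 in the 4 comparisons in that order. Qprt was dim, at 28.4 to 41.0 units. Of the level references, Actb differed by at most 0.05 in any comparison. The 9 probes of Gapdh did not move together, and their differences for pyruvate at 15 mM glucose ran from -0.13 to 0.55. Only the dimmest Gapdh probes, at 0.50 and 0.55, passed the range of the members, and the rest lay inside it.

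**Figure D4:**
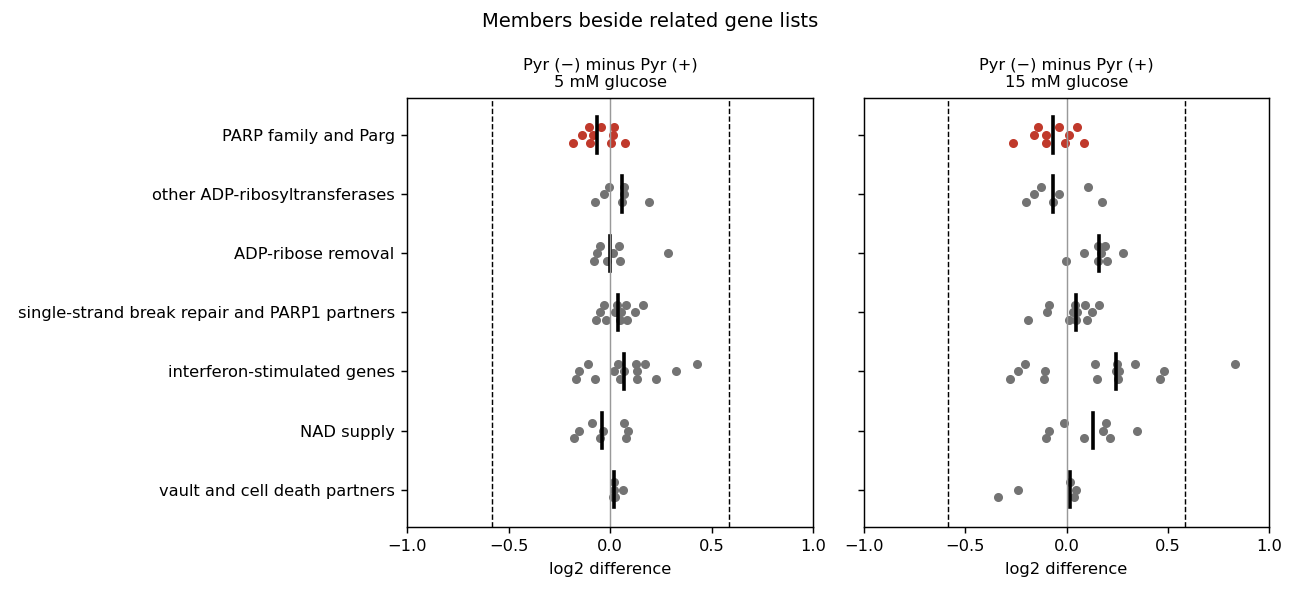
Points are log2 pyruvate differences of single genes at 5 mM (left) and 15 mM glucose (right), by gene list, with the list's median as a black bar and 1.5-fold as dashed lines. The 10 members (red) lie between -0.26 and 0.08, and Mx1 at 0.83 is the only point past 1.5-fold.

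**Figure D5:**
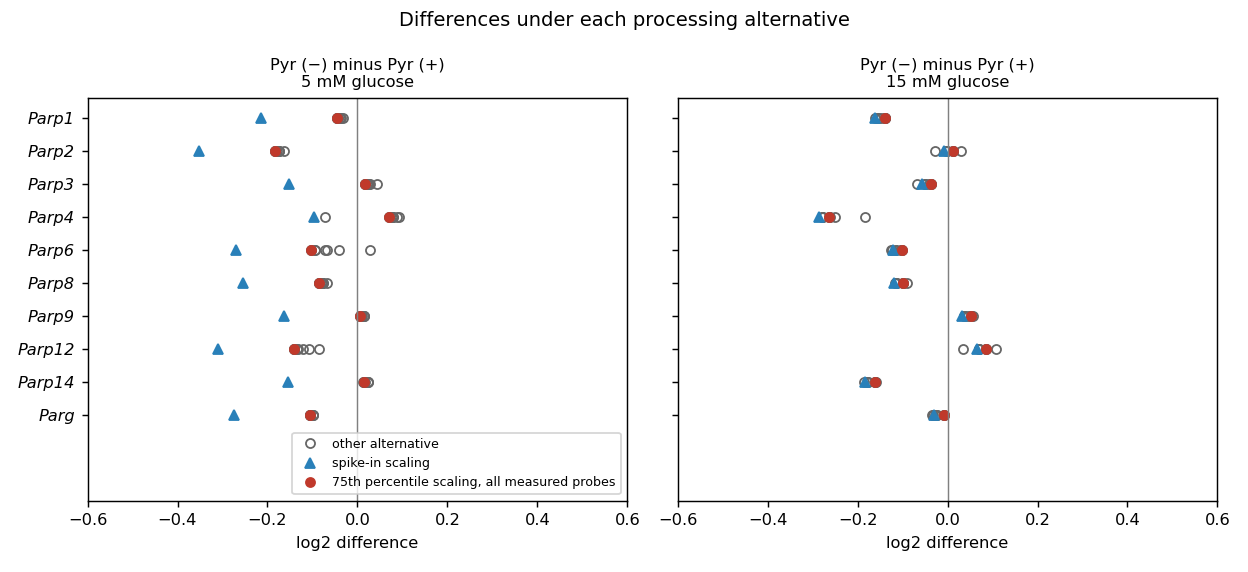
Red points are the log2 pyruvate differences of the 10 genes at 5 mM (left) and 15 mM glucose (right) after 75th percentile scaling, open circles the other alternatives and blue triangles scaling on spike-in RNA. At 5 mM glucose spike-in scaling moves all 10 genes below 0, and at 15 mM glucose it lies close to the other values.

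Scaling on spike-in RNA, which is meant to be added in equal amount to each labelling, moved all genes together. It took the median of all genes from -0.02 to -0.19 for pyruvate at 5 mM glucose and from -0.02 to -0.32 for raised glucose with pyruvate. The members moved with it, to 10 of 10 lower in both comparisons, with medians of -0.23 and -0.35. Because this scaling shifts every probe of an array by the same amount, the gap between the members' median and that of all genes did not move. The widest member difference under any alternative was that of Parp4, 1.43-fold for glucose without pyruvate with spike-in scaling, and no member reached 1.5-fold.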

How the data were processed

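Total RNA of 4 IMS32 cultures, 1 per condition, was labelled with Cy3 and hybridised to 1-colour Agilent mouse arrays on 1 slide. Per the file headers, the authors deposited scanner output of Agilent Feature Extraction 11.5.1.1, whose processed signal is an intensity after background subtraction. They also deposited a table of ratios, each the intensity divided by 1 constant per array within a tolerance of 1e-06 (44397 of 44397 features), which served as an alternative. Control and outlier-flagged spots were left out. Spots of 1 probe were averaged, the intensity was converted to log2 and the 75th percentile of each array was subtracted. Genes were averaged over probes well above background on both arrays compared.

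Members were taken by the gene name on the array and all matched the RefSeq table. The members and gene lists were chosen with earlier results of these data known. Named were all members, genes past 1.5-fold and the widest gene of each list, Dtx3l, level references and the 3 genes most like Parp4. The values of 1 gene that this rule names are not reported here. With 1 array per condition, differences carry no test. An additive model was fitted with limma 3.58.1 in R 4.3.3 and Benjamini-Hochberg adjustment at 0.05. Its trial on simulated data used changes wider than any measured for a member, so that trial does not bear on differences of their size. The study's methods name GeneSpring GX for the arrays and a general ANOVA or Mann-Whitney test for all data, which 1 array per condition does not allow. Python 3.11.15 with pandas 2.3.3 was used. Alternatives were 75th percentile over detected probes, quantile, cyclic loess and spike-in scaling (9 of 10 spike-in probes used), normexp with an offset of 50, the ratio table, 2 other filters on dim probes, the brightest probe per gene and, for the fit, an intensity trend.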

Additional observations from a re-analysis of the deposited data

Results flagged for a closer look

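The dimmer Parp4 probe (A_51_P343913) gave pyruvate differences of opposite sign at the 2 glucose concentrations, 0.21 at 5 mM and -0.35 at 15 mM on the log2 scale. The difference between the glucose concentrations was not tested, since each condition has 1 array. The brighter Parp4 probe gave -0.07 and -0.18. With groups of 1 array, no array could be checked against others of its group.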

How the results depend on the processing

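No member reached 1.5-fold or 2-fold in any comparison under any alternative. Each of 360 member values recomputed under 9 alternatives was set against the SD of that difference over probes of like signal. By this measure 340 stayed within the SD and 20 moved by more, 19 of them with spike-in scaling. The 340 include shifts wider than the 0.093 of repeated spots. For glucose without pyruvate, Parp1 went from -0.12 to -0.27 with spike-in scaling and still counted as within. The sign changed in 22 of the 360 values, 8 of them with spike-in scaling. None of these 22 started above 0.15 on the log2 scale in size. Spike-in scaling moved the members' median to -0.23 for pyruvate at 5 mM glucose and to -0.35 for glucose with pyruvate. The additive fit called 0 of all probes for either term except under normexp, where it called 2 for pyruvate, and 0 member probes under every alternative. The cause of these shifts was not tested. No paired analysis was possible because each condition has 1 array and the labels carry no replicate numbers. What limits precision is the count of arrays, which leaves the fit 1 residual degree of freedom.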
